A study of Homo sapiens with 4 samples.

Results

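Short unmethylated runs are stretches of 1 or 2 neighbouring 1 kb windows with under 10% CpG methylation in non-differentiated HUDEP-2 cells. Windows on a fixed grid along chromosomes 1 to 22 were measured where at least 10 CpGs were listed for all 4 libraries (864535 windows). A window passed where methylated reads made up under 10% of all reads over its CpGs in the NonDiff library, neighbouring passing windows were joined, and runs of at most 2 windows were kept. This gave 10312 runs, of which 8167 had 1 window and 2145 had 2. Together they held 12457 windows, which is 1.44% of the measured windows and 85.05% of the 14647 windows that passed. The other passing windows lay in 647 longer runs of 3 to 10 windows. The runs were thus chosen by their NonDiff levels, and those levels and the difference between DMSO and NonDiff are given as a description without a test.

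HUDEP-2 is an immortalised human erythroid progenitor line that expresses mainly adult haemoglobin and can be differentiated towards red cells. Whole-genome bisulfite sequencing, which reads unmethylated cytosines as thymines, was done on 1 library per condition. NonDiff cells were kept undifferentiated. DMSO cells were differentiated with the vehicle alone, DNMT1i cells with an inhibitor of the maintenance methyltransferase DNMT1, and EEDi cells with an inhibitor of EED. The 3 differentiated cultures shared 0.1% DMSO and went through a growth stage of 4 days and a maturation stage of 2 days. The labels describe the inhibitor-treated cells as having raised fetal haemoglobin; the names and doses of the compounds are not given in the sources used here. All values come from 1 line, and with no replicate cultures every test below compares 2 libraries, not 2 conditions.

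In vertebrate genomes most CpGs are methylated, and stretches rich in CpG that stay unmethylated, the CpG islands, mark the promoters of most housekeeping genes and many developmental genes. DNMT1 copies methylation onto the new strand after replication, so that its loss or inhibition lets methylation dilute as cells divide. EED is the subunit of Polycomb repressive complex 2 that binds trimethylated lysine 27 of histone H3 and is needed for the complex to place that mark, which often covers unmethylated islands of silent developmental genes.

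Of the sequences below, the first lies in the start window of a gene, in the intron that follows its first exon, the second in a run far from the representative start of any gene, and the other two come from windows whose levels differed strongly between libraries. All are hg38, forward strand, 5′ to 3′, outside annotated exons, and capitals mark the CpGs.
PCNA intron, chr20:5119370-5119569: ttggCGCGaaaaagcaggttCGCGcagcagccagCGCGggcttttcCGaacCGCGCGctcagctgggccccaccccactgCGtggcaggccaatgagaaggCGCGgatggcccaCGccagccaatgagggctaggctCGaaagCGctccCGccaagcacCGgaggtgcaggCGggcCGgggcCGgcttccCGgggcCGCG
Distal PRDM1 stretch, chr6:105994799-105994998: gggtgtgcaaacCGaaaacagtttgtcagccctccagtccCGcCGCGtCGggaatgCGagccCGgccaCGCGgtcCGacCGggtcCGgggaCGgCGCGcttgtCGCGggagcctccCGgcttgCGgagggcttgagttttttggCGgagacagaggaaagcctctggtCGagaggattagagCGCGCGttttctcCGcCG
IGF1 intron, chr12:102479292-102479491: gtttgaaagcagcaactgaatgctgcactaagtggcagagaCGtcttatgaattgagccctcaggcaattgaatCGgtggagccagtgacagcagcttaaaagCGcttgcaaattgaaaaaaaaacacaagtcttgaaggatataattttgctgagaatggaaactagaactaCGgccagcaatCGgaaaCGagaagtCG
PIK3R2 intron, chr19:18156377-18156576: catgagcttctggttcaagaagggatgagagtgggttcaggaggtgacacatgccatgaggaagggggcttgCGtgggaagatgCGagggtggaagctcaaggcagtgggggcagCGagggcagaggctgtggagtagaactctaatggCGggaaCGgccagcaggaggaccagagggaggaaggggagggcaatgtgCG
The PCNA stretch holds 24 CpGs in 200 bases and the distal PRDM1 stretch 26, against 7 in the IGF1 stretch and 6 in the PIK3R2 stretch.

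Sequencing depth was even across libraries, with a mean of 27.6 to 30.2 reads per listed autosomal CpG. Within the short runs it was lower, at 21.7 reads per CpG in NonDiff, 22.5 in DMSO, 23.2 in DNMT1i and 24.3 in EEDi. The runs hold 710312 CpGs in the reference, of which 347042 (48.9%) were listed for all 4 libraries, against 88.1% over all measured windows. The share fell with CpG density, from 90.1% in member windows with under 30 reference CpGs per kb to 25.6% in those with 90 or more. Each level below therefore describes the CpGs that reached the listing minimum of 10 reads in every library.

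The runs were CpG-rich on the whole, but not all of them were dense. Member windows held a median of 56 reference CpGs, against 15 over all measured windows, and their median GC content was 57.5% against 45.7%. Windows of longer runs were close to them, with medians of 53 CpGs and 56.3% GC. Of the 12457 windows, 7459 (59.9%) had a GC content of at least 50% with an observed-to-expected CpG ratio of at least 0.6. The share was 56.2% in windows of longer runs and 1.6% in measured windows that did not pass. However, 2880 member windows held under 30 CpGs per kb. Only 4.24% of these sparse windows held a protein-coding start, against 69.8% of the 1986 windows with 90 or more CpGs.

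Most CpGs of the runs were unmethylated, and a small share of CpGs carried most of the methylated reads. In NonDiff, 274430 of the member CpGs (79.1%) had no methylated read. Another 6.15% were above 0 but under 5%, 10.3% were at 5 to under 20%, 3.19% at 20 to under 50% and 1.24% at 50% or more. The last 2 classes together were few, yet they held 32.7% and 28.9% of all methylated reads of the runs in NonDiff. CpGs without a methylated read in NonDiff stood at 0.657% in DMSO, 0.194% in DNMT1i and 0.646% in EEDi. Sorting CpGs by their NonDiff level favours such a rise, and a fall in higher classes. CpGs at 5 to under 20% in NonDiff were at 9.37% there and 6.94% in DMSO.

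The runs had steep edges, which the rule itself favours. Their windows were chosen on the fixed grid for NonDiff levels under 10%, so measured neighbours were at 10% or more. A rise at the window border is therefore built in, and the levels below are a description. Around runs of 1 window, NonDiff methylation pooled over all CpGs was 3.46% in the 500 bp before the centre and 3.48% in the 500 bp after it. It was 33.2% at 500 to 1000 bp on either side and 61.4% at 1000 to 1500 bp. At 5 to 6 kb it was 69.8% before and 70.4% after the centre. Runs of 2 windows were lower at their core, at 1.37% before and 1.38% after the centre, and reached 38.6% at 1000 to 1500 bp on either side. Of the 10312 runs, 5182 had a measured window on both sides, 3904 on 1 side and 1226 on neither, so the true length of many runs could not be read. The 14268 measured neighbour windows had a median NonDiff level of 48.0%, and 2531 of them (17.7%) were at 10 to 20%.

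**Figure D1:**
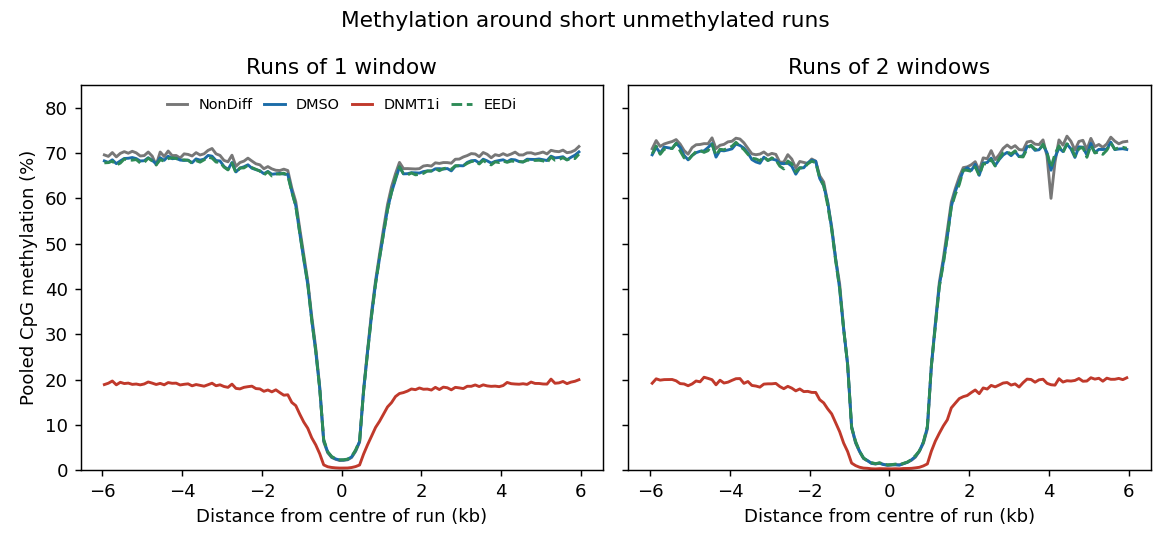
CpG methylation (%, pooled over all listed CpGs in bins of 100 bp) against distance from the centre of the run in kb, for runs of 1 window (left) and 2 windows (right), with 1 line per library. NonDiff, DMSO and EEDi lie nearly on top of each other from the unmethylated core to the flanks near 70%, and DNMT1i runs from under 1% in the core to about 20% in the flanks; 1 bin at 4000 to 4100 bp right of runs of 2 windows dips to 59.98% in NonDiff.

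Protein-coding promoters made up the largest position class. A start of a protein-coding gene, taken from GENCODE release 44 as 1 representative transcript per gene, lay in 5027 of the 10312 runs (48.7%). A further 551 runs held a lncRNA start, 99 another start, and 1923 lay within 1 kb of a start without holding it. Exons held 455, introns 1107, and 1150 were intergenic. All these classes, and the distances given below, refer to the representative transcripts; of the 1150 runs, 265 overlapped another annotated transcript. Counting every annotated transcript of protein-coding genes raised the share with a start to 61.2%, and 3395 runs held no annotated transcript start of any kind. In the other direction, 5791 of 19111 autosomal protein-coding starts (30.3%) lay in a short run, 613 in a longer run, 7060 in another measured window and 5647 in a window with too few shared CpGs. Protein-coding starts on opposite strands shared a run in 560 cases, and 714 runs held at least 2 protein-coding starts. With lncRNA starts counted as well, 1483 runs with a protein-coding start had starts on both strands.

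The position classes differed in level. NonDiff methylation pooled over CpGs was 2.52% in runs with a protein-coding start, 3.70% within 1 kb of a start, 4.98% in introns and 5.31% in intergenic runs. The EEDi library gave 2.62%, 3.96%, 5.34% and 5.57% in the same order, and DNMT1i gave 0.485%, 0.686%, 0.967% and 1.12%. Around the protein-coding starts in short runs, levels in the 2 bands of 500 bp next to the start were lower on the side of the gene. In NonDiff, they were 1.73% in the first 500 bp of the gene and 16.6% in the next 500 bp, against 3.96% and 32.3% over the same distances upstream. DMSO and EEDi showed the same asymmetry, with 1.66% and 1.77% in the first 500 bp of the gene and 3.89% and 3.90% upstream. In DNMT1i the values were 0.425% and 0.926%. This did not hold at every distance: NonDiff was at 0.722% in the 100 bp after the start and 0.518% in the 100 bp before it, and at 5 to 6 kb at 83.3% after and 76.1% before.

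The genes with starts in the runs were sorted by lists of genes with known functions, and each list was set against the 13464 protein-coding genes whose start window was measured, of which 43.0% lay in a short run and 4.55% in a longer one. Genes for basic cell functions were mostly in short runs. This held for 24 of 30 aminoacyl-tRNA synthetase genes, which charge tRNAs, 35 of 48 translation initiation factor genes, 37 of 51 splicing factor genes and 63 of 90 genes of the respiratory chain and ATP synthase. It also held for 48 of 69 mitochondrial ribosomal protein genes, 20 of 30 DNA repair genes and 25 of 40 proteasome subunit genes. Of the cytosolic ribosomal protein genes, 47 of 77 were in short and 8 in longer runs. The replication-dependent histone genes, which lie in dense clusters, were mostly in longer runs (35 of 63) and 19 were in short ones.

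Shares in short runs were smaller for developmental transcription factors, germline genes and imprinted genes. Of 139 measured genes in the list of developmental transcription factors (HOX, FOX, PAX, SOX and other families), 41 (29.5%) had their start in a short run and 22 in a longer one. Their start windows were also higher than those of other genes, with a median of 5.00% in NonDiff and 4.74% in DMSO, against 0.855% and 0.882% over all protein-coding starts in short runs. Among ZNF zinc finger genes the share was 180 of 414 (43.5%), near that of all protein-coding genes. Only 3 of 28 germline genes had their start in a short run: SMC1B, STAG3 and TEX14. Germline genes are commonly methylated in somatic cells. Of the imprinted list, 6 of 35 entries were in short runs, with HERC3 counted under 2 gene identifiers. Cyclin and cyclin-dependent kinase genes had a greater share, with 16 of 24. These counts are descriptions: members and lists were chosen with results of these data known, and no test of the lists was made.

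**Figure D2:**
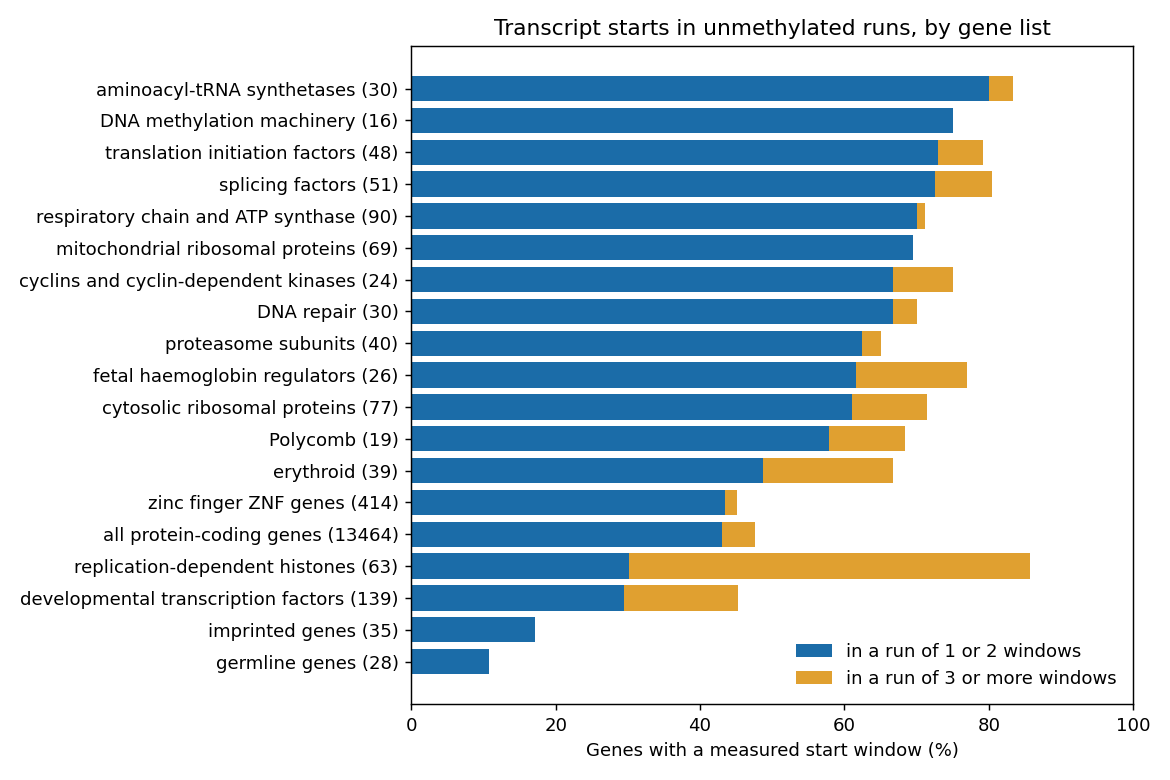
Share of genes (%) whose start window lay in a run of 1 or 2 unmethylated windows (blue) or in a longer run (orange), for each gene list, with the number of genes whose start window was measured in brackets. Lists for translation, splicing and respiration stand to the right of all protein-coding genes (43.0% in short runs), and germline and imprinted genes to the left; the histone genes are the list with the greatest share in longer runs.

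The share of promoters with the letters of some factor motifs was greater in short runs than elsewhere. RefSeq promoters (250 bases before to 50 after the start, hg38) were available for 33725 autosomal starts, of which 7333 lay in a window of a short run. Both strands were searched, and motifs could overlap. The GC box (GGGCGG) bound by SP and KLF factors was in 71.5% of promoters in short runs, 68.3% in longer runs, 41.2% in other measured windows and 45.0% of all. The ETS motif (CCGGAAG) was in 22.41%, 11.1%, 8.74% and 10.3% of the same 4 sets. The NRF1 motif was in 13.3%, 12.02%, 4.13% and 5.79%. The YY1 motif (AAGATGGC) was in 6.0% of promoters in short runs, 4.49% in longer runs and 2.84% of all. The TATA box (TATAAA) was in 4.54% of promoters in short runs, 8.76% in longer runs and 11.6% of all. For the GATA motif (AGATAA) the values were 4.84%, 4.38% and 10.4%, and for the CCAAT box (CCAAT) 37.5%, 40.3% and 34.4%. E2F and Kaiso motifs were also somewhat more frequent in longer runs (3.48% and 1.12%) than in short ones (2.97% and 0.996%). Promoters in short runs held a median of 26 CpGs and all promoters 14.

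Pooled over all member CpGs, methylation was 3.25% in NonDiff, 3.35% in DMSO, 0.641% in DNMT1i and 3.44% in EEDi, with 95% Wilson intervals for counting error of 3.24 to 3.27, 3.34 to 3.37, 0.635 to 0.646 and 3.43 to 3.45%. Reads that copy the same molecule are not independent, so the intervals cover counting error only. The median member window was at 2.34% in NonDiff, 2.33% in DMSO, 0.353% in DNMT1i and 2.32% in EEDi. Longer runs were lower in all 4 libraries, with pooled levels of 2.56%, 2.55%, 0.498% and 2.62%. Windows at 10 to 20% in NonDiff, just above the threshold, were at 15.2% in NonDiff, 15.2% in DMSO, 3.21% in DNMT1i and 15.3% in EEDi. The threshold cut a continuous range: the start window of ZNF582 (9.99% in NonDiff) and that of EGR3 (9.99%) were just inside, and a window on chromosome 7 and one within ADARB2 on chromosome 10, neither with a representative start and each at 10%, just outside.

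**Figure D3:**
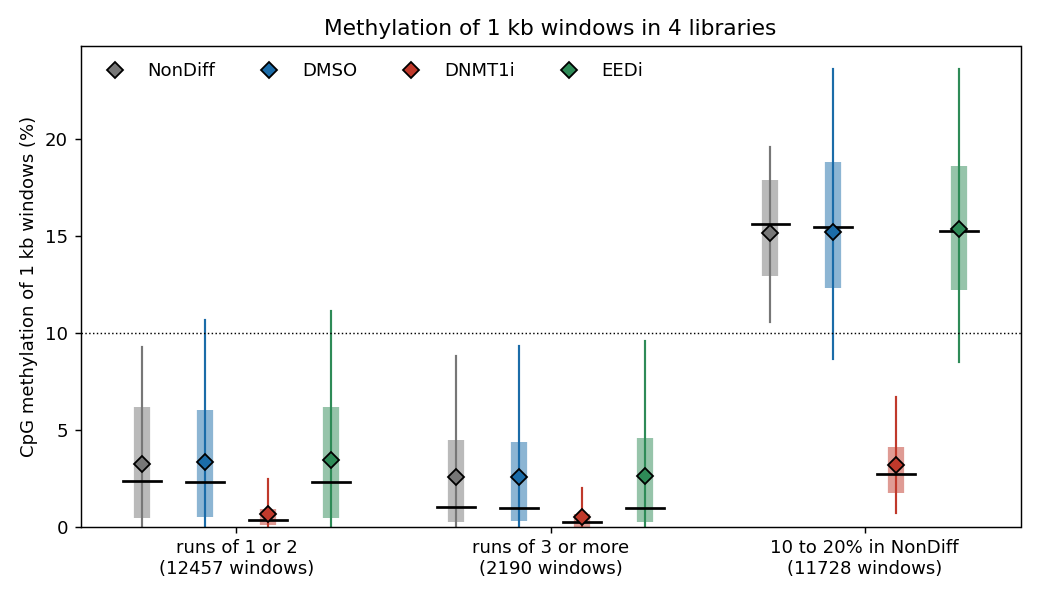
Methylation (%) of 1 kb windows in the 4 libraries for runs of 1 or 2 windows, longer runs, and windows at 10 to 20% in NonDiff. Thick bars span the 25th to 75th and thin lines the 5th to 95th percentile over windows, black lines are medians, diamonds are levels pooled over reads and the dotted line is the 10% threshold; DNMT1i is the lowest library in each class, with a median of 0.353% in short runs.

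In the cells differentiated with the vehicle, the pooled DMSO level was 0.101 points above NonDiff, whereas over all measured windows the difference was -1.404 points (66.5% against 67.9%). A rise is favoured here, because the windows were chosen for low NonDiff values. Windows chosen for low DMSO values in the same way gave a difference of the opposite sign, at -0.299 points. A difference of at least 5 points upward was seen in 210 member windows (1.69%, against 5.05% of all measured windows) and downward in 30 (0.241%, against 12.5%). A fall of that size needs a NonDiff level of at least 5%, which 3995 member windows (32.1%) had. In 7982 member windows (64.1%) the libraries were within 1 point.

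With the DNMT1 inhibitor, the low methylation of the runs was lower still. The pooled difference from DMSO was -2.71 points, and 11000 of 12457 member windows were lower. The remaining methylation was 19.1% of the DMSO level, against 30.02% in all other measured windows at 10% or more in NonDiff and 21.1% in those at 10 to 20%. It differed with the starting level, from 34.1% in the 4586 member windows under 1% in NonDiff to 16.6% in those at 2 to 5%. The 34.1% is 0.158% in DNMT1i against 0.462% in DMSO. How much of such low levels came from unconverted cytosines or read errors was not measured. At least 5 points lower with an adjusted p under 0.01 were 2996 member windows (24.1%, against 98.6% of all measured windows), by a two-sided Fisher's exact test on the reads of the 2 libraries with Benjamini-Hochberg adjustment over all measured windows. A window must start at 5% or more to fall that far: the share was 66.6% of member windows at 5 to 10% in NonDiff and 0.0654% of those under 1%. Windows with no methylated read at all numbered 924 in DMSO and 2877 in DNMT1i.

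The test treats CpGs on 1 read as independent. With the reads of each window divided by its number of CpGs, which leaves about the reads of a single CpG, 1 member window was lower with DNMT1i, and 671995 of all 864535 windows were. So few reads can hardly show a fall of 5 to 10 points, and the count does not tell whether the calls in the runs hold. The pooled difference ranged over the processing alternatives from -3.87 to -1.23 points.

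The member windows with the greatest fall under the DNMT1 inhibitor are given next; a fall of this size needs a high DMSO level. A window over exon 2 and flanking introns of PIK3R2, a regulatory subunit of PI3 kinase (chr19:18156001-18157000, 11 CpGs), was at 7.26% in NonDiff, 26.6% in DMSO, 1.14% in DNMT1i and 12.1% in EEDi. DMSO was the highest of the 4 libraries there, and the difference of DNMT1i from DMSO was -25.5 points, with an adjusted Fisher p of 6.43e-20. The same gene's printed stretch, 6 CpGs within this window, was at 13.8%, 43.2%, 0.935% and 21.1% in the same order of libraries.
The start window of SLC25A39, a mitochondrial carrier that imports glutathione (chr17:44324001-44325000, 24 CpGs), was at 9.46% in NonDiff, 21.6% in DMSO, 0.783% in DNMT1i and 16.9% in EEDi. It was high in both DMSO and EEDi. The difference of DNMT1i from DMSO was -20.8 points (adjusted Fisher p = 5.85e-22). The EEDi difference of -4.64 points did not pass (adjusted Fisher p = 0.537). Only 24 of the 106 reference CpGs of this window were shared. In DMSO 15 of the 24 had no methylated read and 8 were at 20% or more. A dense stretch of 130 bases in it, with 8 shared CpGs, was at 1.94% in NonDiff, 1.19% in DMSO, 0 in DNMT1i (97 reads) and 0.971% in EEDi. The remaining named falls lay at the window nearest MIR182 (from 21.1 to 1.02%) and in introns of RBFOX1, a splicing regulator (18.4 to 0.806%), and ZNF638 (20.97 to 3.50%). The sixth was an intergenic window on chromosome 8 (20.8 to 3.47%).

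No member window was called higher with the DNMT1 inhibitor, and none of all measured windows was (0%). Without the minimum of 5 points, 1 member window was called higher by Fisher's exact test. At an unadjusted p under 0.05, 7 member windows were higher and 6997 lower, against 9 and 857709 of all measured windows. A window over exon 1 of the lncRNA RPL23AP7 on chromosome 22, singled out after its values were seen, was the only member window at 10% or more with DNMT1i, at 10.4%, with 3.62% in NonDiff, 7.94% in DMSO and 6.20% in EEDi. Its difference from DMSO did not pass the test (adjusted Fisher p = 0.175), and its name marks it as a copy of a ribosomal protein gene, so reads from near-identical copies may be counted there.

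**Figure D4:**
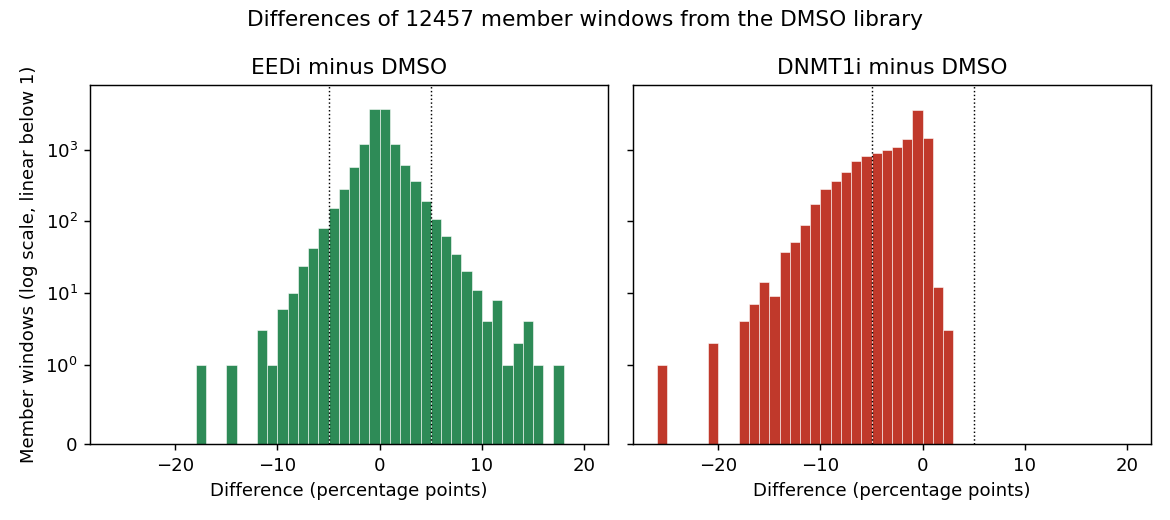
Number of member windows (log axis, linear below 1) by difference from the DMSO library in percentage points, for EEDi (left) and DNMT1i (right), in bins of 1 point. Both comparisons use the same DMSO library, and dotted lines mark 5 points; EEDi spreads to both sides, from -17.3 to 17.3 points, with 257 windows at least 5 points higher and 169 at least 5 points lower, and DNMT1i lies mostly below 0 (11000 of 12457 windows), with no window at 5 points or more above.

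With the EED inhibitor the runs as a whole stayed at the DMSO level, with a pooled difference of 0.0842 points and a median difference over windows of 0. Higher were 6009 member windows and lower 6127, and 7464 (59.9%) were within 1 point. Over all measured windows the difference between EEDi and DMSO was -0.693 points. The test called 68 member windows higher (0.546%, against 0.185% of all measured windows) and 28 lower (0.225%, against 0.279%). In longer runs it called 13 of 2190 windows higher (0.594%) and 5 lower (0.228%). Among windows at 10 to 20% in NonDiff it called 141 of 11728 higher (1.2%) and 98 lower (0.836%). With a minimum of 5 shared CpGs instead of 10, 65 member windows were higher and 91 lower, and the pooled difference was -0.332 points. With each window's reads divided by its CpG number, 0 member windows and 0 of all measured windows were called in either direction by Fisher's exact test, at a depth that leaves about the reads of a single CpG. At an unadjusted p under 0.05, 993 member windows were higher and 816 lower by Fisher's exact test, against 49074 higher and 73515 lower of all measured windows.

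The 68 higher windows lay in 68 runs on 21 chromosomes, and 21 of them held a protein-coding start. Their median level was 7.15% in NonDiff, 4.45% in DMSO and 12.3% in EEDi. EEDi was above NonDiff in all 68, by at least 5 points in 37, which choosing windows for low NonDiff and calling them for high EEDi favours. DMSO was above NonDiff in 6, and a call for EEDi above DMSO picks low DMSO values. The 28 lower windows had medians of 7.83% in NonDiff, 12.3% in DMSO and 3.87% in EEDi; DMSO was above NonDiff in 27 of them, and EEDi was below NonDiff in 26, by at least 5 points in 3, with a median of -2.24 points. By position, 13 of 1208 windows of intron runs were higher (1.08%) and 3 lower, 7 of 1260 of intergenic runs (0.556%) and 4, 14 of 2089 within 1 kb of a start (0.670%) and 5, and 25 of 6588 in runs with a protein-coding start (0.379%) and 11. Calls also differed with the starting level. Under 1% in NonDiff, 0% of member windows were higher and 0.0218% lower, against 1.28% and 0.576% at 5 to 10%. A fall of 5 points needs a DMSO level of at least 5%. The position classes differ in starting level, and the shares were not adjusted for it.

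The largest rise was in an intron of IGF1, which encodes insulin-like growth factor 1, at 563 bp from the representative IGF1 start (chr12:102479001-102480000, 12 CpGs). It was at 9.67% in NonDiff, 11.46% in DMSO, 2.94% in DNMT1i and 28.7% in EEDi. EEDi alone was high, 17.3 points above DMSO (adjusted Fisher p = 2.48e-06, 362 reads in EEDi summed over CpGs), and 8 of 12 CpGs were higher and 3 lower. In the printed IGF1 stretch the 7 CpGs were at 10.9% in DMSO and 36.5% in EEDi.
The window with the start of the lncRNA CTD-2194D22.4 on chromosome 5, in a run 3076 bp from the representative start of the homeobox gene IRX4, was at 9.77% in NonDiff, 10.3% in DMSO, 4.06% in DNMT1i and 25.4% in EEDi. The start of the unclassified gene ENSG00000279161 near GNG8 was at 8.87%, 8.61%, 2.04% and 23.1% in the same order. In both windows NonDiff and DMSO were close to each other and EEDi was apart, with 19 of 24 and 14 of 15 shared CpGs higher than in DMSO. The windows hold 100 and 64 reference CpGs, so these levels cover a small part of each.
A window in an intron of TBR1, a T-box factor of cortical neurons, and over an exon of a lncRNA was at 6.55%, 5.23%, 1.75% and 19.3%. Of its 13 CpGs 6 were higher in EEDi than in DMSO and 5 lower; 4 were at 20% or more in EEDi, 1 of them at 70.8%. An intron of BBX, an HMG-box gene, in a window that holds the start of another BBX transcript, was at 1.22%, 2.17%, 0.885% and 15.7%. BBX had the lowest starting level of these 5 windows. Of its 15 shared CpGs, out of 81 in the reference, 9 were higher and 2 lower, and 1 reached 52.6% in EEDi.

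Among runs with a protein-coding start, singled out after the values were seen, the rise was greatest at ABHD17C, a depalmitoylating enzyme, with 4.19% in NonDiff, 0.709% in DMSO, 0 in DNMT1i (which allows up to 0.958%) and 12.3% in EEDi. CNR1, the cannabinoid receptor of the brain, was at 5.53%, 1.95%, 0.922% and 13.1%. In both, DMSO was below NonDiff and EEDi above both. Only 16 of 158 reference CpGs were shared in the ABHD17C window and 16 of 123 in that of CNR1, so these levels cover a small part of each. NDUFV2, a subunit of respiratory complex I, was the only gene of the respiratory chain list that was called with EEDi, at 5.80%, 2.74%, 4.58% and 12.5%. The mesenchymal homeobox gene PRRX1 was at 5.91%, 4.57%, 1.94% and 13.1%, and the histone gene H2BC18 at 6.26%, 4.39%, 6.53% and 9.77%. H2BC18 belongs to a family of near-identical genes, so its reads may be shared with copies.

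Over all lists, start windows called with EEDi were those of NDUFV2 and H2BC18. Of all 5135 short-run windows with a protein-coding start, 21 were called higher and 4 lower with EEDi, and 682 lower with DNMT1i (13.3%). The DNMT1i calls included 9 of 47 start windows of mitochondrial ribosomal proteins (19.1%), 4 of 63 of the respiratory chain (6.35%) and 26 of 177 of ZNF genes (14.7%). Of the developmental transcription factor list, no start window in a short run was called in either direction with EEDi, and 13 of 41 were lower with DNMT1i. However, the nearest protein-coding gene was a factor of that list for 7 of the 68 runs with a higher call (10.3%), 0 of the 28 with a lower call, and 388 of all 10312 runs (3.76%). The 7 genes were FOXN3, HOXC13, IRX3, IRX4, NKX2-6, POU4F1 and SOX2. No test was made of this difference, and the shares were not adjusted for starting level. Start windows of that list in short runs had a median of 5.00% in NonDiff, against 0.855% over all protein-coding starts there. Of member windows at 5 to 10% in NonDiff, 1.28% were called higher with EEDi, against 0% of those under 1%.

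The lower windows with EEDi were led by the window nearest MIR182, within a lncRNA intron on chromosome 7 (11 CpGs), at 8.60% in NonDiff, 21.1% in DMSO, 1.02% in DNMT1i and 3.88% in EEDi. The PIK3R2 window followed, with a difference of -14.4 points from DMSO but 4.88 points above NonDiff. A window on chromosome 11, 42968 bp from the start of SCGB1A1 and within a longer AHNAK transcript, was at 9.02%, 18.9%, 3.10% and 7.43%. With at least 20 reads per CpG its EEDi difference from DMSO was -3.46 points and the call was lost (adjusted p = 0.309 by Fisher's exact test, against 0.000206); the unweighted mean over CpGs gave -7.56 points, against -11.46.
An intron of CRYBG1 was at 8.29%, 14.3%, 3.27% and 3.31%, so that both inhibitor libraries lay close together and below NonDiff. Exon 3 of RPS3, a protein of the small ribosomal subunit that hosts SNORD15A, was at 4.67%, 13.2%, 0 and 3.86%. The 532 DNMT1i reads there, summed over 20 CpGs and none methylated, allow up to 0.564% if taken as independent. The EEDi difference from DMSO in the RPS3 window was -9.34 points, and -5.39 as an unweighted mean over CpGs. An intron of TMEM116 was at 5.25%, 16.0%, 0.634% and 6.83%. DMSO was the highest library in these windows, an order favoured by choosing windows for low NonDiff and calling them for EEDi below DMSO.
Only 4 start windows of protein-coding genes were called lower: RAET1L, SIRT4, OXA1L and STRADA. STRADA, a pseudokinase that activates LKB1, was at 0.457% in NonDiff, 7.29% in DMSO, 0 in DNMT1i and 0 in EEDi, a DMSO value carried by 3 of its 15 CpGs; the values of 0 allow up to 1.09% in DNMT1i and 1.31% in EEDi. SIRT4, a mitochondrial sirtuin, was at 9.48%, 13.4%, 1.49% and 6.97%, and OXA1L, which inserts proteins into the inner mitochondrial membrane, at 8.63%, 14.2%, 4.01% and 8.46%.

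**Figure D5:**
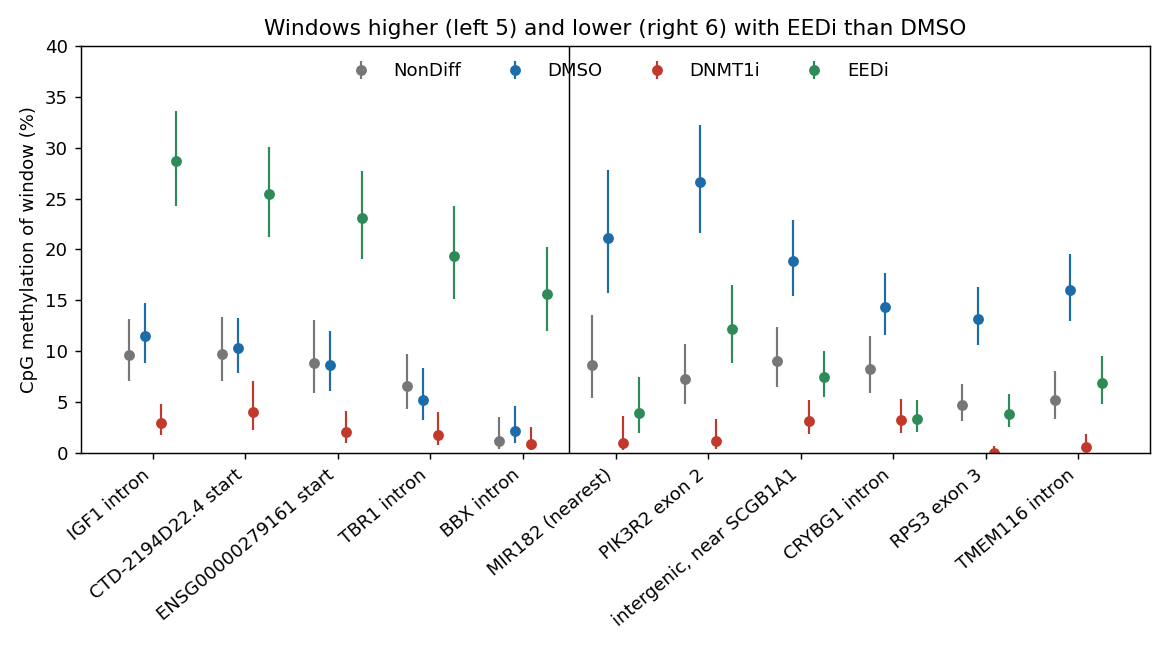
Methylation (%) in the 4 libraries of 5 of the 6 member windows with the greatest rise (left of the line) and the 6 with the greatest fall (right) among those called for EEDi against DMSO, with 95% Wilson intervals that cover counting error only. On the left EEDi stands at 15.7 to 28.7% above the other 3 libraries; on the right DMSO stands at 13.2 to 26.6% above the other 3. The choice of windows for low NonDiff and a called difference favours both orders.

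Genes that bear on this cell type and on the inhibitors' targets were looked at by list. Starts in short runs were found for 19 of 39 erythroid genes, 16 of 26 genes known to regulate fetal haemoglobin, 12 of 16 genes of the DNA methylation machinery and 11 of 19 Polycomb genes, with 7, 4, 0 and 2 more in longer runs. The median DMSO level of their start windows in short runs was 0.746%, 0.592%, 0.431% and 0.625%, against 0.882% over all protein-coding starts there. None of them was called with EEDi in either direction, where 21 of all 5135 such windows were higher and 4 lower. With DNMT1i, 3 start windows were called lower and none higher, where 13.3% of all short-run windows with a protein-coding start were lower. These were DMTN, a red cell membrane skeleton protein (9.49% in DMSO and 0.949% in DNMT1i), ASXL2, a Polycomb-associated protein (10.2% and 2.11%), and HDAC1, a histone deacetylase (10.5% and 0.707%). The 3 were also the highest of these lists in DMSO.

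The start windows of the DNA methylation machinery with the most CpGs were at the bottom of the scale. PCNA, the sliding clamp that brings DNMT1 to replicating DNA (73 CpGs in its start window), was at 0.259% in NonDiff, 0.142% in DMSO, 0.106% in DNMT1i and 0.120% in EEDi. These are 4, 2, 2 and 2 methylated reads of 1545, 1406, 1892 and 1662, summed over CpGs, and the libraries did not differ beyond counting error. CXXC1, which binds unmethylated CpG, was at 0.665%, 0.695%, 0.212% and 0.294%. HELLS, a chromatin remodeller needed for methylation, was at 0.788%, 0.978%, 0.117% and 1.92%, and CDCA7, its partner, at 1.55%, 0.952%, 0.427% and 1.52%. The readers MBD1, MBD3 and MBD4 and DNMT1 itself were under 1.1% in every library. The start window of DNMT1 was at 0.231%, 0.122%, 0.0978% and 0.263%. No start window of this list passed the test. Among the genes of these lists named here, a value of 0 allows a level of up to 0.289% (PPOX with EEDi) to 2.17% (EZH2 with DNMT1i), as 3 counts of its reads. This takes reads summed over CpGs as independent, so the limits are too narrow where 1 read covers several CpGs.

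Among Polycomb genes, BAP1, a deubiquitinase of histone H2A, was at 0.135%, 0.472%, 0 and 0.130%, and RBBP4, a histone-binding subunit of Polycomb repressive complex 2, at 0.235%, 0.337%, 0 and 0.608%. EZH2, the catalytic subunit of that complex, was at 0.769%, 0.826%, 0 and 0, from 10 CpGs and at most 172 reads in a library. PHF19, another subunit, was at 3.14% in NonDiff, 1.28% in DMSO, 0 in DNMT1i and 6.04% in EEDi; its 4.76-point rise over DMSO did not pass (adjusted Fisher p = 0.0735).

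Erythroid genes with starts in short runs included the haem synthesis genes UROD, UROS, PPOX, CPOX, FECH and ALAS1. PPOX was at 0.125%, 0.428%, 0.107% and 0. ALAS1, the non-erythroid form of the first enzyme, stood higher, at 9.47% in NonDiff, 5.15% in DMSO, 0.816% in DNMT1i and 5.26% in EEDi. SLC25A38, a mitochondrial glycine carrier, was at 0.586%, 0.637%, 0 and 0.332%, and KLF1, a transcription factor of erythroid cells, at 0.290%, 0.938%, 0.292% and 0.471%. HBA1, an alpha-globin gene with a near-identical neighbouring copy whose reads may be shared, was at 0.345%, 0.957%, 0.392% and 0.347%. None of the genes named here was called for either inhibitor, and all but ALAS1 were under 1% in all 4 libraries where values are given here.

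Among regulators of fetal haemoglobin, ATF4, a stress response transcription factor, had no methylated read in NonDiff or DMSO, 0.109% in DNMT1i and 0.617% in EEDi. LIN28B, an RNA-binding protein of fetal cells, was at 4.91%, 3.95%, 0.421% and 2.49%; its fall with DNMT1i had an adjusted Fisher p of 1.58e-06 but, at 3.53 points, was under the 5 points asked of a call. ZNF410 was at 5.87%, 3.44%, 1.66% and 3.05%, and KDM1A, a histone demethylase, at 3.70%, 2.90%, 0.452% and 1.956%. In LIN28B, ZNF410 and KDM1A, NonDiff was the highest and DNMT1i the lowest library.

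The level within a run is shown for those with the most shared CpGs and those far from representative starts. The runs named here all lie on chromosomes 8 and 6. Member CpGs there had means of 31.3 and 28.0 DMSO reads, against 22.5 over all short runs. A ranking by shared CpGs favours such depth, because more CpGs reach the listing minimum. The start run of TCP1, a chaperonin subunit, and MRPL18, a mitochondrial ribosomal protein, on opposite strands of chromosome 6, was under 0.6% in each library and window. The start run of LAPTM4B on chromosome 8 was at 1.31% in NonDiff in its first window and 3.30% in the second, where 1 CpG reached 76.6%. A run 2442 bp from the start of the developmental gene OSR2, within a longer STK3 transcript, was higher, at 6.77%, 8.56%, 1.29% and 8.07% in its first window. Of all runs, 1755 (17.02%) lay over 5 kb from the representative start of any gene; 256 of these held the start of some other annotated transcript, and 1222 were over 5 kb from every annotated one. The run of the distal PRDM1 stretch printed above lies 90336 bp from the representative start of PRDM1, a transcriptional repressor, but within a longer PRDM1 transcript, and its first window is 538 bp from an annotated start. That window held 87 shared CpGs in its first window, at 5.01% in NonDiff, 3.40% in DMSO, 0.961% in DNMT1i and 5.77% in EEDi. Its EEDi difference of 2.37 points had an adjusted Fisher p of 0.00334 and was under 5 points. Within it, the printed 26 CpGs were at 1.09%, 0.910%, 0.138% and 0.664%, below the mean of the window in every library. A run on chromosome 8, 6465 bp from the representative start of RUNX1T1, a transcriptional corepressor, holds starts of other RUNX1T1 transcripts. It had 81 shared CpGs in its first window, at 2.63%, 1.74%, 0.424% and 2.33%. Its second window stood higher, at 9.81%, 8.76%, 0.823% and 7.90%, with 1 CpG at 94.9% in NonDiff, and was called lower with DNMT1i at -7.94 points. The difference was -12.7 points with at least 20 reads per CpG and -4.82 as an unweighted mean over CpGs, under the 5 points of a call. A run on chromosome 6, 38393 bp from the start of NCR2, an activating receptor of natural killer cells, was at 5.36%, 6.86%, 0.794% and 6.21% in its first window and 7.14%, 6.19%, 1.04% and 4.22% in its second. Both of its windows were called lower with DNMT1i and neither with EEDi, but the second, at -5.14 points, fell under 5 points as an unweighted mean (-4.36).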

How the data were processed

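Whole-genome bisulfite libraries of 4 conditions, 1 each, were used. Per the submitters' processing notes, reads were processed with Trim Galore 0.6.7, cutadapt 4.1, Bismark, Bowtie2 2.1.0 and methylKit on hg38; whether duplicates were removed is not given in the sources used here. The authors deposited, for each CpG, the read count (coverage) and the percent of reads that were methylated and unmethylated, with no CpG under 10 reads. Methylated counts were recovered as percent times coverage and came out whole within 0.0005 of the coverage for 100% of CpGs with up to 1000 reads; 1790 to 2086 CpGs per library had more. CpGs were shared where all 4 libraries listed them (22761441 of 24844416 autosomal CpGs, 91.6%).

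Counts were summed over the CpGs of each 1 kb window, so a read over several CpGs counts once for each of them. Limits given for values of 0 are 3 divided by this sum, which treats the counts as independent reads. A window was called where a two-sided Fisher's exact test on the reads of 2 libraries gave a Benjamini-Hochberg adjusted p under 0.01 over all 864535 windows and levels differed by at least 5 points; the code was tested on simulated data. EEDi and DNMT1i were each compared with the same DMSO library. Starts came from GENCODE 44 (18191 MANE Select, 920 other canonical transcripts) and promoter sequences from RefSeq. Named were the 6 largest calls per comparison and direction, members with starts in 4 gene lists (erythroid, fetal haemoglobin, DNA methylation, Polycomb), the 3 members with the most shared CpGs, the 3 such over 5 kb from a representative start, and those next to the threshold; others are marked as chosen after their values were seen. Of the 6 largest rises with EEDi, 1 window is not reported here. Members and lists were chosen with earlier results of these data known. Alternatives changed the coverage, threshold, minimum of CpGs, weighting, grid, bridging of gaps, CpGs over 100 reads, test and call limits. Another, for copy number, left out chromosome 18 and chromosome 10 beyond 100 Mb. Python 3.11.15, numpy 2.4.6, pandas 2.3.3, scipy 1.17.1, numba 0.67.0 and matplotlib 3.10.9 were used.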

Additional observations from a re-analysis of the deposited data

How the results depend on the processing

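No paired analysis was possible because each group has 1 library. The counts below are in the order higher with EEDi, lower with EEDi and lower with DNMT1i (68, 28 and 2996 in the text). With at least 20 reads per CpG, 4761 runs were found, 1825 with a protein-coding start; 30, 11 and 1226 windows were called, and the pooled differences were -2.67 points for DNMT1i and 0.00593 for EEDi, each minus DMSO. With NonDiff under 5%, 21, 5 and 352 windows were called, with differences of -1.23 and 0.0159, and 0.123 for DMSO minus NonDiff. With at least 5 shared CpGs there were 31682 runs, 65 windows higher and 91 lower with EEDi, and 13446 lower with DNMT1i. The differences were then -3.87 for DNMT1i, -0.332 (reversed in sign) for EEDi and 0.517 for DMSO minus NonDiff. An unweighted mean over CpGs gave -2.57, 0.143 and 0.0226. Bridging windows with too few CpGs moved the DNMT1i difference to -2.73; a bridge of at most 2 such windows was added after seeing the data and gave 9937 runs. Choosing runs by the DMSO library turned DMSO minus NonDiff to -0.299. Reads divided by the number of CpGs left 0, 0 and 1 windows; a 10-point minimum left 12, 4 and 393; no minimum gave 43 lower with EEDi, 6015 lower and 1 higher with DNMT1i; an adjusted p under 0.05 by Fisher's exact test gave 118 higher and 55 lower with EEDi. Other results over all runs moved by less than 1.5 times (counts) or the counting interval (differences). Of the calls at windows that the naming rule gives, 22 were lost with divided reads, 2 unweighted (DNMT1i at RUNX1T1 and NCR2, -4.82 and -4.36 points) and 1 with 20 reads per CpG (EEDi near SCGB1A1, -3.46). Small differences that were not called changed sign with 20 reads per CpG at PCNA (DNMT1i, 0.116), SLC25A38 (EEDi, 0.202) and BAP1 (EEDi, 0.345), and unweighted in both windows of LAPTM4B (EEDi, -0.235 and -0.0331). Dense windows lost CpGs to the listing minimum, and 1 library per condition leaves the spread between cultures unknown.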
